A study of Homo sapiens with 4 samples.

Results

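LNPEP encodes leucyl and cystinyl aminopeptidase, and its mRNA carries a long 3'UTR that the deposited annotation of the final peak list treats as intergenic sequence. The peaks described here were chosen from the iCLIP readout itself, by their overlap with the LNPEP gene body in hg19 (GRCh37), whatever gene name or annotation the list gave them. This rule selected 15 of the 282 intervals shared by both replicates, 15 of the 719 peaks of replicate 1 and 12 of the 534 peaks of replicate 2. Because the peaks were selected on being called, their number and enrichment are given as a description and were not tested.

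The study asked which mRNAs are bound by MARF1 in HEK293 cells, a human embryonic kidney line, which the labels of all 4 libraries name HEK293-Trex. F-MARF1ΔNYN, a FLAG-tagged MARF1 without its NYN nuclease domain, was expressed from a stable doxycycline-inducible transgene that was switched on for 12 hr by doxycycline at 100 ng/mL. Control HEK293 cells expressed no FLAG-tagged MARF1 and went through the same FLAG immunoprecipitation, and the sources used here do not say whether they received doxycycline. All cells were crosslinked with UV light at 254 nm and 400 mJ per square centimetre, and each group had 2 biological replicates, which makes 4 libraries. Whether the cells came from a single clone is not given in the sources used here. Peaks were called by the authors separately for each F-MARF1ΔNYN library, with the equally numbered control as background. Only peaks were analysed here, so the expression level of LNPEP and of kidney cell markers could not be examined.

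LNPEP, also known as insulin-regulated aminopeptidase or oxytocinase, is a membrane-bound zinc peptidase of the M1 family that cleaves peptide hormones such as oxytocin and vasopressin. In fat and muscle cells it travels with the glucose transporter GLUT4 in insulin-responsive vesicles. A 3'UTR follows the stop codon of an mRNA and is where many RNA-binding proteins act on mRNA stability and translation, and MARF1 carries RRM and LOTUS domains that contact RNA.

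In GENCODE, LNPEP (ENSG00000113441) lies on the plus strand of chromosome 5 at chr5:96271098-96373217, and its longest coding transcript has 18 exons. The 3'UTR of this transcript is a single stretch of 8980 nt in the last exon, at chr5:96364238-96373217, which makes it the 294th longest among 19036 protein-coding genes. The other coding transcript ends 503 nt after the stop codon. Each of these ends has the poly(A) signal AATAAA shortly upstream, 20 nt before the end of the short form and 16 nt before the end of the long form. The signals are in capitals in these sequences of the hg19 plus strand, at chr5:96364703-96364732 and chr5:96373184-96373213. They are shown because they lie close to the annotated ends of both forms.
poly(A) signal 478: ggtaacgaagacAATAAAgcatgcactgta
poly(A) signal 8959: ttgtgaaatgaaAATAAAagtatttaaata
The number in each name is the distance from the stop codon in nt, and all positions below are counted in this way.

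The letters TGTANATA, the core of the element recognised by Pumilio proteins, occurred 17 times on the sense strand of the LNPEP 3'UTR, and 9 of these matches lay within shared intervals. The 9 are shown in 30 nt of the hg19 plus strand, with the match in capitals, because no other protein-coding 3'UTR had as many matches as LNPEP. They fall in 6 of the 15 intervals. The 30 nt shown start at chr5:96368448 (match at 4222), chr5:96368797 (4571), chr5:96369021 (4795), chr5:96369912 (5686), chr5:96370624 (6398), chr5:96370677 (6451), chr5:96370746 (6520), chr5:96370929 (6703) and chr5:96372735 (8509).
element 4222: ttttgtggacgTGTAGATAaaacgcggtgg
element 4571: tatgtacttaaTGTATATAaataaacttgc
element 4795: aatgcacttaaTGTATATAcatgtttttac
element 5686: acttttagaaaTGTATATAaatgttcttgc
element 6398: gtatatgtgtgTGTATATAcacacaagaac
element 6451: acacattttaaTGTATATAaatatttgcta
element 6520: tgggacatggaTGTACATAatgaaacatgg
element 6703: ctttttaaagaTGTATATAaatgtttcatg
element 8509: gtgtatgtatgTGTATATAaaatgagaatt
A match is a run of letters and was not examined for binding of any protein.

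A short inverted repeat, TTGCC followed by GGCAA after 3 to 8 nt, was looked for after the sequence had been seen. It occurred 6 times on the sense strand, and both arms are in capitals in these sequences of the hg19 plus strand, which start at chr5:96369144, chr5:96369819, chr5:96370047, chr5:96370561, chr5:96370810 and chr5:96371050. They are shown because the arms and bases around them recur within a limited part of the 3'UTR, in which peaks of both replicates lie.
inverted repeat 4914: tcccttaTTGCCcatgtgGGCAAtacttaa
inverted repeat 5589: ttccttaTTGCCtctgtaGGCAAtaattat
inverted repeat 5817: tcccttaTTGCCtgtcttGGCAAtggccag
inverted repeat 6331: tccctcaTTGCCtagggGGCAAtggtagaa
inverted repeat 6580: tccctcaTTGCCtacaggGGCAAtagtttc
inverted repeat 6820: ttccttaTTGCCtgtgtcGGCAAtaggaag

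All 15 peaks of replicate 1, all 12 peaks of replicate 2 and all 15 shared intervals lay in the LNPEP 3'UTR by GENCODE. Neither replicate had a peak elsewhere in the 102120 bp of the gene, the coding sequence and introns included. The first peak began 1307 nt after the stop codon, with 803 nt between it and the end of the short transcript, so that the peaks lay only in sequence of the long form. The shared intervals ran from 2931 to 8554 nt, and 426 nt of 3'UTR followed the last one. Intervals held a median of 138 nt (range 48 to 376 nt), beside a median of 119 nt for the other shared intervals of the list.

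**Figure D1:**
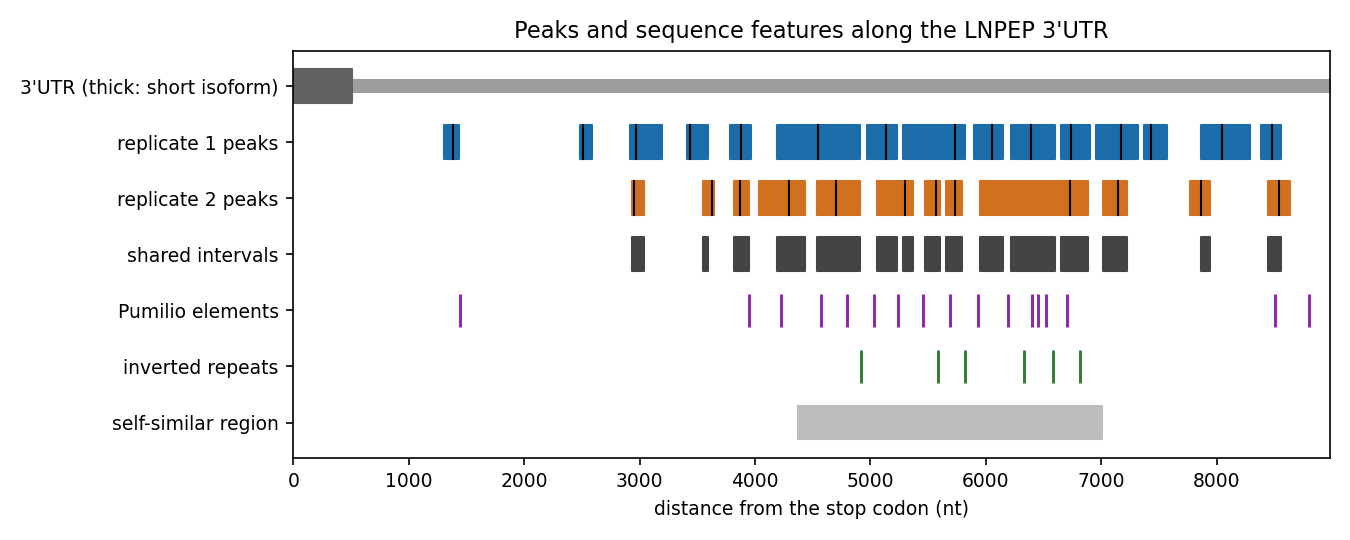
Map of the LNPEP 3'UTR by distance from the stop codon in nt, with the peaks of each replicate (black line, summit), the intervals shared by both, the TGTANATA matches (Pumilio elements), the inverted repeats and the region that aligns to itself. No peak lies over the 503 nt of the short form, and the shared intervals run from 2931 to 8554 nt.

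The Homer annotation of the deposited final list called all 15 intervals intergenic, out of 35 intergenic intervals in the list, and placed 0 of them in a 3'UTR. The list gave the gene name LNPEP to 13 of the intervals and the name of another gene to 2. In GENCODE, a long non-coding RNA (ENSG00000247121), a processed pseudogene (ENSG00000227836) and a Y_RNA overlapped the LNPEP gene, and none of them overlapped the 3'UTR. The deposited peaks carry no strand, so the strand of the reads cannot be read from them.

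The peaks of LNPEP stood apart from other peaks on the chromosome. In replicate 1 the nearest peaks outside the gene were 1047436 bp upstream and 6238444 bp downstream. In replicate 2 they were 17648052 bp upstream and 14089510 bp downstream. The neighbouring protein-coding genes, the antigen-trimming aminopeptidase ERAP2 at 15691 bp upstream and LIX1 at 54354 bp downstream, had 0 peaks in either replicate. Chromosome 5 as a whole held 57 peaks in replicate 1 and 46 in replicate 2.

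Fold enrichment, the ratio of the signal at a summit to the local background as the authors' peak caller gave it, had a median of 7.76 over the 15 peaks of replicate 1 (range 5.71 to 16.4). The median over the 12 peaks of replicate 2 was 9.29 (range 6.99 to 17.0). Peaks outside LNPEP had medians of 6.10 in replicate 1 and 7.42 in replicate 2, and the difference from LNPEP was not tested. The LNPEP peaks thus spread widely within each replicate, and the highest of them stood near the top of the list by fold enrichment.

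The strongest LNPEP peak of replicate 1 had the summit at 5730 nt, with a fold enrichment of 16.4 and a q-value of 1.15e-25. It was the 4th highest of the 719 peaks by fold enrichment. The strongest peak of replicate 2 had the summit at 6732 nt, with a fold enrichment of 17.0 and a q-value of 8.88e-26. It was the 2nd highest of the 534 peaks. The strongest positions of the replicates therefore differed. Each had a weaker summit of the other replicate beside it, at 5733 nt in replicate 2 (fold enrichment 9.06) and at 6735 nt in replicate 1 (6.96). The weakest q-value of an LNPEP peak was 0.000505 in replicate 1 and 1.64e-06 in replicate 2, and the weakest of any peak in the lists was 0.0489 and 0.0433.

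**Figure D2:**
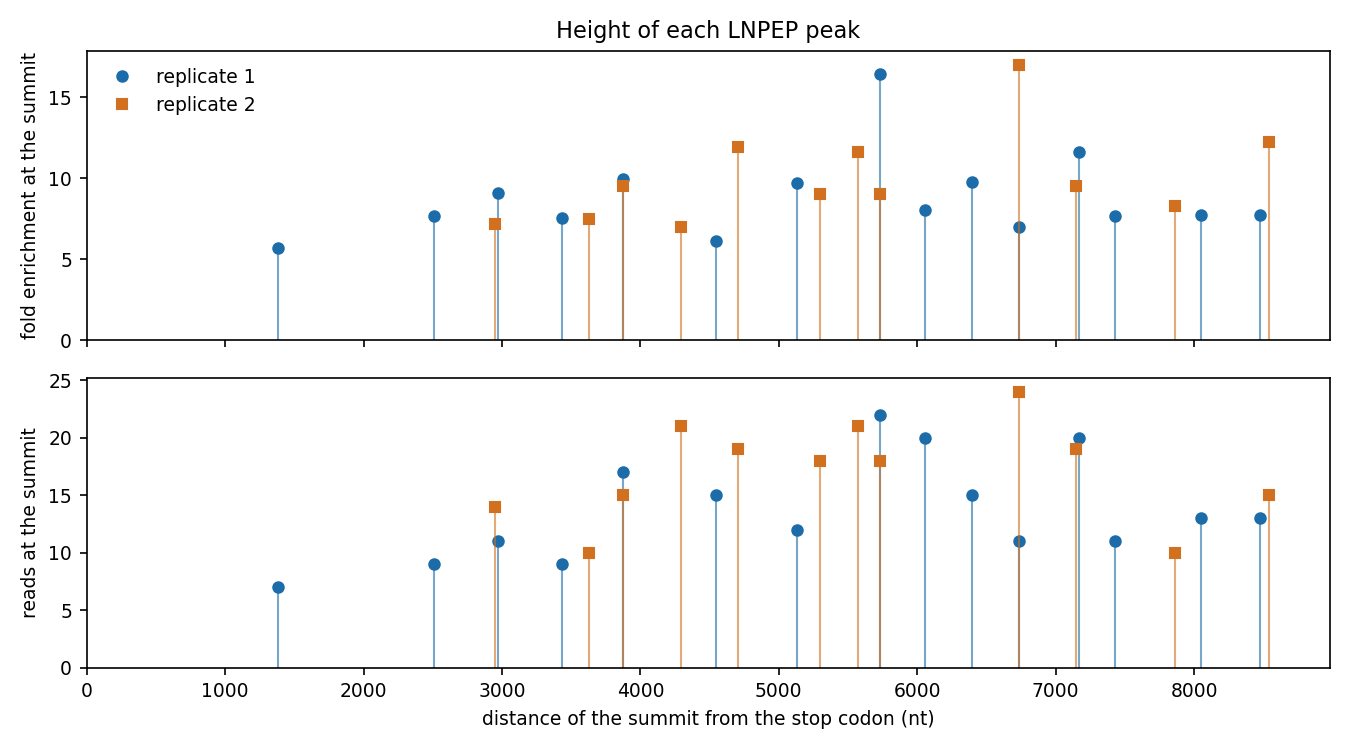
Fold enrichment (upper) and reads at the summit (lower) of every LNPEP peak against the distance of its summit from the stop codon in nt, for replicate 1 (circles) and replicate 2 (squares). The highest fold enrichment is 16.4 in replicate 1, at 5730 nt, and 17.0 in replicate 2, at 6732 nt.

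The number of reads at each summit was solved from both values that the caller printed for a peak, its p-value and its fold enrichment, and a whole number of reads satisfied both for all 719 peaks of replicate 1 and all 534 of replicate 2, within 0.005 on the −log10 scale. The LNPEP summits held a median of 13 reads in replicate 1 (range 7 to 22) and of 18 reads in replicate 2 (range 10 to 24). Peaks outside LNPEP held medians of 8 and 11 reads. By reads at the summit, the highest LNPEP peak ranked 30 in replicate 1 and 36 in replicate 2, lower than by fold enrichment. Each LNPEP summit therefore rests on 7 to 24 reads, which leaves large counting error on a single fold enrichment.

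The control libraries enter these values as the local background. At the LNPEP summits this background allowed at most 2 control reads in a window of 100 bp in either replicate. It allowed no control read at 9 of 15 summits in replicate 1 and at 7 of 12 in replicate 2, beside 499 of 704 and 351 of 522 for the peaks outside LNPEP. The median background was 0.643 at LNPEP summits and 0.273 at the other summits of replicate 1. In replicate 2 it was 0.70 and 0.40. The background at LNPEP was thus low in absolute terms and higher than at the other peaks by the median, a difference that was not tested. At most 1 control read was possible at 13 LNPEP summits in replicate 1 and 11 in replicate 2. The summit at 4293 nt in replicate 2, with 21 reads over at most 2 control reads, and the summits at 4547 and 6055 nt in replicate 1, with 15 and 20 reads over at most 2, had the highest backgrounds.

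Of the 15 LNPEP peaks of replicate 1, 12 overlapped a peak of replicate 2 (80%, 95% Wilson interval from 54.8 to 93.0%, for counting error alone). All 12 LNPEP peaks of replicate 2 overlapped a peak of replicate 1 (100%, interval 75.8 to 100%). Both intervals treat the peaks as independent, which neighbouring peaks of 1 RNA in the same libraries are not. No comparison with other peaks is drawn from them. Outside LNPEP, 246 of 704 peaks of replicate 1 (34.9%) and 238 of 522 peaks of replicate 2 (45.6%) overlapped a peak of the other replicate. The LNPEP peaks were also longer, with medians of 259 bp in replicate 1 and 176 bp in replicate 2, beside 132 and 137 bp elsewhere. Together they covered 49.5% of the 3'UTR in replicate 1 and 35.6% in replicate 2. The part of length and coverage in the overlap was not tested, nor was the difference from the other peaks. With a reciprocal overlap of 50%, 5 shared intervals were left in place of 15, and the shares of peaks with a partner were 33.3% in replicate 1 and 41.7% in replicate 2.

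The 3 peaks of replicate 1 without a partner had their summits at 1382, 2512 and 7432 nt. Their fold enrichments were 5.71, 7.66 and 7.68, with 7, 9 and 11 reads at the summit. The first was the lowest of all LNPEP peaks in reads and in fold enrichment, while the others lay close to the median fold enrichment of replicate 1.

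At 7 of the 15 shared intervals the summits of both replicates lay inside the interval, at a median of 18 nt from each other (range 3 to 157 nt). The other shared intervals of the list with both summits inside, 153 in number, had a median of 17 nt. In LNPEP, 3 pairs of summits lay 3 nt apart. They are shown in 30 nt of the hg19 plus strand, from chr5:96368097, chr5:96369954 and chr5:96370956, with the bases from one summit to the other in capitals, because these are the positions at which both replicates placed a summit most closely.
summits 3873: cttaaccttattgCCTGtgtgggtgacagc
summits 5730: ttacttcattgtgTGCCaaggcctttccat
summits 6732: atgttattggtttTGTAcctagtcctttgc
At the pair near 3873 nt the fold enrichments were alike, at 9.98 (17 reads) in replicate 1 and 9.54 (15 reads) in replicate 2. At the pair near 5730 nt replicate 1 was higher, at 16.4 and 22 reads against 9.06 and 18 reads. At the pair near 6732 nt replicate 2 was higher, at 17.0 and 24 reads against 6.96 and 11 reads. A shared interval takes its values from the whole peak of each replicate that it belongs to, so intervals cut from the same peak share a value, and the summit may lie outside the interval. With values taken in this way, fold enrichment was higher in replicate 1 at 8 of the shared intervals and in replicate 2 at 7.

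Taking the lower replicate at each shared interval, the fold enrichment had a median of 8.06, beside 6.67 for the other shared intervals. The interval from 5470 to 5604 nt was the highest by this measure, at 11.6 from replicate 2, whose summit lay inside it. Its replicate 1 peak, with a fold enrichment of 16.4, had the summit outside the interval, at 5730 nt, so the height of replicate 1 within the interval itself is not known. The intervals from 4193 to 4435 nt and from 4536 to 4907 nt were the lowest, both set by a single peak of replicate 1 with a fold enrichment of 6.14.

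In all, peaks covered 4446 nt of the LNPEP 3'UTR in replicate 1 (49.5%) and 3193 nt in replicate 2 (35.6%). Both replicates covered 2644 nt (29.4%), or 11.1% of the 3'UTR with a reciprocal overlap of 50%, and either covered 4995 nt (55.6%). Of the nucleotides under replicate 1 peaks, 59.5% were also under replicate 2 peaks, and of those under replicate 2 peaks, 82.8% were under replicate 1 peaks. Between the first and the last shared interval, a span of 5624 nt, replicate 1 covered 74.6%, replicate 2 covered 55.4% and both covered 47.0%. Gaps between neighbouring peaks were shorter than 100 nt at 8 of 14 places in replicate 1 and at 2 of 11 in replicate 2. Neighbouring summits were not closer in replicate 1, with a median spacing of 450 nt in replicate 1 and 420 nt in replicate 2.

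LNPEP had the 2nd highest number of shared intervals of any gene, counted by the exon under the middle of each interval, after MARF1 with 18. Of these 18, 1 lay in the 3'UTR of MARF1. A MARF1 transgene was induced in these cells, and its part in the count was not tested. Next came CBX6 with 12, and IGF2BP1 and NORAD with 9 each. Counted by the gene names of the deposited list, LNPEP came 1st with 13, before CBX6 and MARF1 (listed under its older symbol KIAA0430) with 12 each. Among the 105 genes with a shared interval in the 3'UTR, LNPEP with 15 had the highest number, and 58 of the other 104 genes had 1. The 15 intervals of LNPEP came from 12 peaks in each replicate. A long peak called in both replicates can count as 1 interval, so this number does not measure the length covered. The 3'UTR of LNPEP was also the 6th longest of these 105, beside a median of 3576 nt for the others. Per kb of 3'UTR, LNPEP had 1.67 shared intervals and was 6th. By the share of the 3'UTR covered in both replicates it was 13th, and by the number of nucleotides covered it was 3rd.

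The 3 other genes with the most shared intervals in the 3'UTR were CBX6, a Polycomb chromobox protein, IGF2BP1, an mRNA-binding protein, and ADCY6, an adenylyl cyclase. CBX6 had 12 intervals in 4787 nt (2.51 per kb, 44.2% covered in both replicates). IGF2BP1 had 9 in 6701 nt (1.34 per kb, 32.2% covered). ADCY6 had 8 in 2397 nt (3.34 per kb, 56.1% covered). Among genes with at least 5 shared intervals, LCOR, IGF2BP1 and CBX6 were nearest to LNPEP in 3'UTR length, with log2 length ratios of 0.27, -0.42 and -0.91. LCOR, a nuclear receptor corepressor, has a 3'UTR of 10822 nt with 6 intervals, of which 4.77% was covered in both replicates. Peaks covered 16.4% of the LCOR 3'UTR in replicate 1 and 22.9% in replicate 2. By coverage in both replicates, LNPEP lay between the densely covered shorter 3'UTRs of CBX6 and ADCY6 and the sparsely covered long one of LCOR. These differences were not tested.

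**Figure D3:**
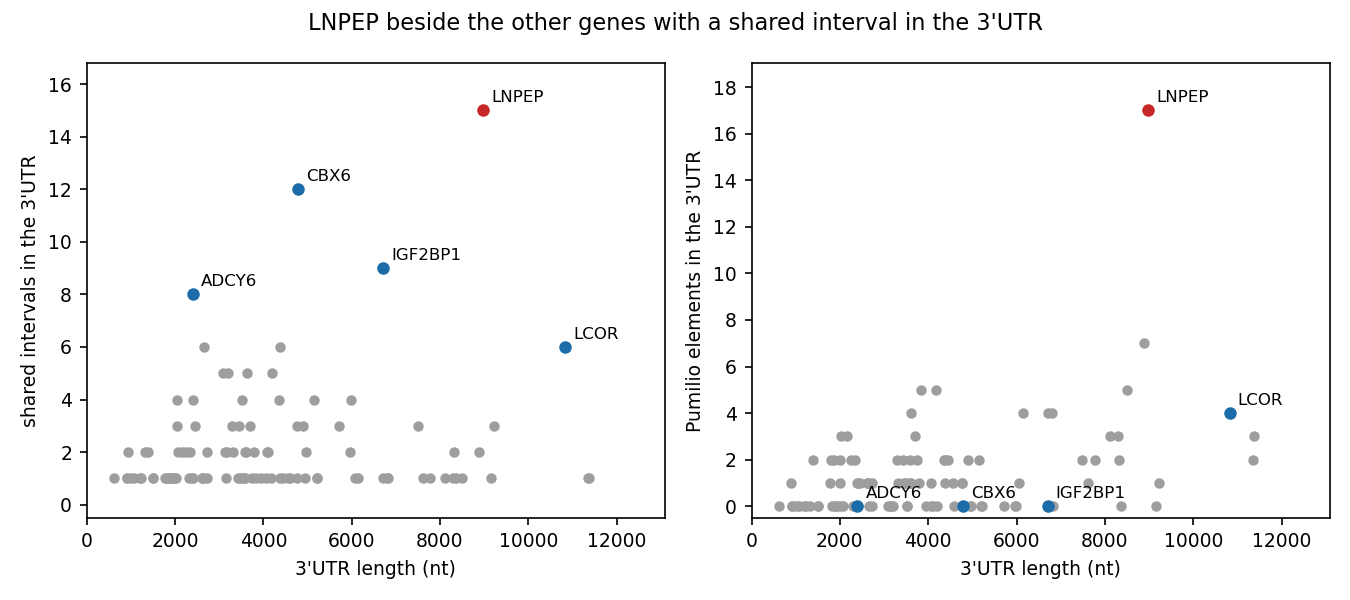
Number of shared intervals (left) and of TGTANATA matches (right, Pumilio elements) in the 3'UTR against 3'UTR length in nt, one point for each of the 105 genes with a shared interval in the 3'UTR, with LNPEP in red and the genes set beside it in blue. LNPEP has 15 intervals and 17 matches.

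Peaks were also counted in the enzyme family to which LNPEP belongs. Of the 12 M1 aminopeptidases, 1 had a peak in replicate 1, 1 in replicate 2 and 1 a shared interval, LNPEP each time. Among all 19507 protein-coding genes, 352 (1.8%) had an exon under a replicate 1 peak, 233 (1.19%) under a replicate 2 peak and 109 (0.559%) under a shared interval. ERAP1 and ERAP2, the relatives of LNPEP that trim peptides in the endoplasmic reticulum, and ANPEP, which trims peptides at the cell surface, had 0 peaks. The rule that selected LNPEP used the same peaks, so nothing is read from its own place in this count. With shares this low over all genes, nothing is read from the lack of peaks in the other members either.

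Of 18 genes for the GLUT4 vesicle and its traffic, in which LNPEP protein is a cargo, 2 had a peak in replicate 1, 1 in replicate 2 and 1 a shared interval. Over all 19507 protein-coding genes the shares were 1.8%, 1.19% and 0.559%, and the difference was not tested. The list was chosen with earlier results of these data known, so nothing is read from its counts beside these shares. TFRC, the transferrin receptor, had 6 peaks in replicate 1, 4 in replicate 2 and 6 shared intervals. TBC1D4, a Rab GTPase-activating protein downstream of the insulin receptor, had 3 peaks in replicate 1 and 0 in replicate 2. The transporter itself, SLC2A4, and the vesicle proteins SORT1, LRP1 and VAMP2 had 0 peaks. A gene without a peak may be weakly expressed in these cells, which was not tested because no expression levels were analysed here.

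The sequence under the LNPEP intervals was less rich in A and U than the rest of the 3'UTR. The A and U share was 60.6% over the 2644 nt of the shared intervals and 65.7% over the other 6336 nt. It was 55.2% over the 216 shared intervals of other 3'UTRs and 57.5% over all protein-coding 3'UTRs. LNPEP intervals ranged from 54.2% to 67.0%, so that single intervals spread on both sides of the share of the whole LNPEP 3'UTR, 64.2%. The median over intervals was 59.7%, and it was 63.2% with a reciprocal overlap of 50%, close to that whole. None of these differences was tested.

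Predicted folding energy was computed in windows of 100 nt centred on the middle base of each interval. The median was -20.7 kcal/mol over the 15 LNPEP intervals (range -34.3 to -14.9). It was -14.5 kcal/mol over 50 windows of the rest of the LNPEP 3'UTR and -22.6 kcal/mol over the 216 intervals of other 3'UTRs. By the median, windows at LNPEP intervals were thus predicted to fold more stably than the rest of the same 3'UTR. Their median A and U share was also lower, at 59% against 67%, and its part in the folding energy was not tested.

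**Figure D4:**
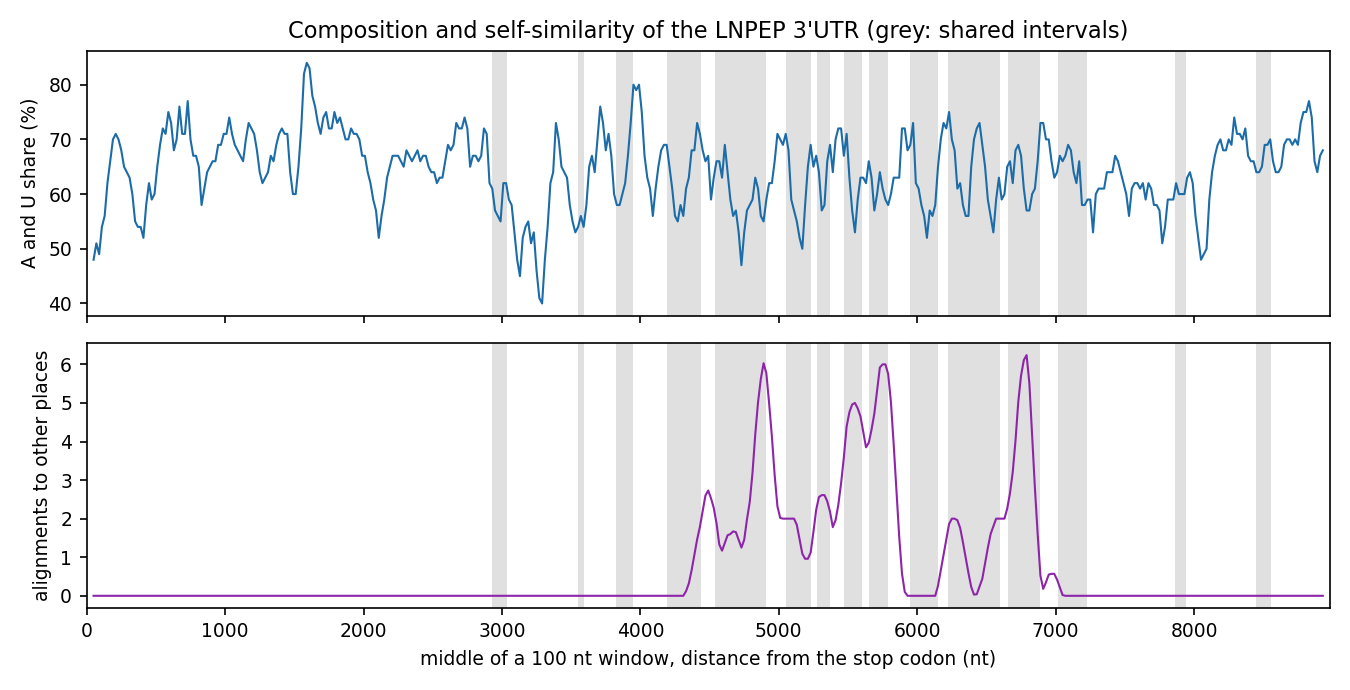
A and U share in percent (upper) and mean number of alignments of the 3'UTR to other places in itself (lower) in windows of 100 nt along the LNPEP 3'UTR, with the shared intervals in grey. Self-alignment is limited to 4369 to 7002 nt, where 8 of the 15 intervals lie.

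The 17 TGTANATA matches shown above in part made LNPEP the 3'UTR with the most matches among all 19036 protein-coding 3'UTRs, where the next highest had 15. The 871 3'UTRs within 1.5 times its length had a median of 1 match, and the next highest of them had 11. Matches numbered 3.40 per kb in the LNPEP shared intervals, 1.26 in the rest of the LNPEP 3'UTR, 0.148 in the shared intervals of other 3'UTRs and 0.219 in all 3'UTRs. Of the 17 LNPEP matches, 15 lay in a peak of at least 1 replicate, so the rest also held matches under peaks. In windows of 100 nt, 3 of 15 at LNPEP intervals (20%) held a match, beside 2 of 50 (4%) in the rest of the LNPEP 3'UTR. The share was 1.9% of 356357 windows tiling all protein-coding 3'UTRs and 0.463% of the 216 windows at intervals of other 3'UTRs. CBX6, IGF2BP1 and ADCY6 had 0 matches in the whole 3'UTR and LCOR had 4. TGTANATA was thus frequent in LNPEP and scarce at the intervals of other 3'UTRs, but not at those of the non-coding RNA NORAD, which held 3.09 matches per kb.

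Within LNPEP, 13 of the 17 matches lay in replicate 1 peaks and 11 in replicate 2 peaks. Only those at 4571, 4795 and 8509 nt lay in intervals left with a reciprocal overlap of 50%. From 3949 to 6703 nt, 14 matches followed each other at a median of 224 nt (range 53 to 349 nt). Most summits did not lie close to a match. Of the summits between the first and last shared interval, 13 in replicate 1 and 12 in replicate 2, the median distance to the nearest match was 100.5 nt in replicate 1 and 87 nt in replicate 2, beside 108 nt for every position of that span. Within 50 nt of a match were 5 of the 13 and 3 of the 12, beside 25.1% of the positions, a difference that was not tested.

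This recurrence went with a self-similar stretch of sequence. Aligned to itself on the sense strand, the LNPEP 3'UTR gave 16 alignments of at least 50 nt between different places, with a median length of 166 nt and a median identity of 71.4% (range 66.2 to 83.3%). They covered 2093 nt (23.3% of the 3'UTR), all from 4369 to 7002 nt, and the shortest shift between copies was 208 nt. Among the 105 genes with a shared interval in the 3'UTR, LNPEP had the most nucleotides aligned in this way, the next was ZKSCAN1 with 1226 nt, and 82 had none.

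This region of 2634 nt is 29.3% of the 3'UTR. It held 6 of the 15 summits of replicate 1, 5 of the 12 summits of replicate 2, 8 of the 15 shared intervals, 12 of the 17 TGTANATA matches and all 6 inverted repeats. Replicate 1 peaks covered 86.4% of the region and 34.2% of the rest of the 3'UTR. Replicate 2 peaks covered 74.6% and 19.4%, and shared intervals 68.0% and 13.4%. The rest of the 3'UTR here includes all sequence before 2931 nt, where replicate 2 had no peak. By nucleotides covered, peaks of both replicates thus took up more of this region than of the rest, and summits were also denser in it, although most summits of either replicate lay outside it. The interval from 5947 to 6152 nt lies in the region but between aligned pieces, which end at 5870 nt and resume at 6182 nt. Repeats in one 3'UTR share their sequence and are not independent sites, so the difference was not tested.

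Of the inverted repeats, 4 lay within shared intervals, at 5589, 6331, 6580 and 6820 nt. The LNPEP 3'UTR had the most of these repeats among all protein-coding 3'UTRs, with 2 in the next highest, and 0.0443% of the windows of 100 nt tiling all 3'UTRs held one. Of the 15 windows of this length at the middle of LNPEP intervals, 0 did. The pattern was chosen after the LNPEP sequence had been seen, so nothing is read from the rank of LNPEP. The distances of the repeats from the downstream ends of peaks varied between replicates. The repeat at 5589 nt ended on the last nucleotide of a replicate 2 peak and 217 nt from the nearest peak end of replicate 1. The repeat at 6580 nt ended 1 nt from a peak end of replicate 1 and 289 nt from one of replicate 2. In replicate 1 and replicate 2, respectively, the distances were 17 and 22 nt for the repeat at 4914 nt and 11 and 42 nt for that at 5817 nt. The repeats at 6331 and 6820 nt ended 193 and 49 nt from the nearest peak end of either replicate. In all, 3 of the 6 ended within 15 nt of a peak end, beside 11.9% of all positions between the first and last shared interval, a limit chosen after seeing the distances and a difference that was not tested.

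Poly(A) signals and AU-rich pentamers were not as frequent in the intervals as TGTANATA. AATAAA occurred 9 times in the LNPEP 3'UTR, 3 of them in shared intervals, at 1.13 per kb against 0.947 in the rest of the LNPEP 3'UTR. Of the 15 windows of 100 nt at LNPEP intervals, 0 held it, beside 7.87% in all 3'UTRs. ATTAAA occurred 4 times and never in a shared interval, beside 5.91% of all windows. ATTTA, the core of AU-rich elements, occurred 21 times, of which 2 were in shared intervals, at 0.756 per kb against 3.0 in the rest of the LNPEP 3'UTR. By windows, 13.3% of those at LNPEP intervals held it, beside 26% in the rest of the LNPEP 3'UTR, 13.9% at intervals of other 3'UTRs and 17.8% in all 3'UTRs. All motifs were searched on the sense strand with overlaps allowed, and the AATAAA at 4579 nt directly follows the TGTANATA at 4571 nt.

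By the methods, only reads with more than 10 places in the genome were dropped, while the paper's results state that multi-mapping reads were removed. Exact copies of the LNPEP sequence were therefore counted. Of the 8931 windows of 50 nt in the LNPEP 3'UTR, 8835 (98.9%) occurred once in the genome on either strand. All 1910 windows that lie wholly inside shared intervals occurred once. The 96 windows with further copies, up to 1154, lay between 2066 and 3338 nt, and 25 of them occurred in more than 10 places. No window occurred more than once within the 3'UTR, so the self-similar stretch holds no identical copies of this length. Copies with mismatches and reads shorter than 50 nt were not examined.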

How the data were processed

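The data are iCLIP libraries of F-MARF1ΔNYN and control HEK293 cells. Per the methods and the submitters' processing notes, reads of 50 bp were trimmed (Trimmomatic 0.32), aligned to hg19 (STAR 2.3.0e), dropped if they mapped to more than 10 places, and freed of secondary alignments (SAMtools 1.9) and duplicates (Picard 2.10.7). Peaks were called with MACS2 2.1.1 at an extension of 100 bp and an FDR of 0.05, and the intersection was annotated with HOMER 4.10. For each peak the authors deposited its score, the linear ratio of signal to local background (fold enrichment) and the p-value and q-value as −log10. No values per library were used, 0 columns per sample were left unused, and library totals are unknown.

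Peaks were intersected at 1 bp, which gave the same 282 intervals as the deposited list, and placed in genes by the middle base, using release 44 of GENCODE on GRCh37. Each gene was given its longest coding-transcript 3'UTR, and readthrough genes were left out. Reads at the summit were solved by taking fold enrichment as (weight × reads + 1) / (background + 1) with its Poisson p-value, where the weight that solved the peaks was 1 in replicate 1 and 0.951 in replicate 2. On data simulated with the same formula, 390 of 390 peaks were recovered at a read weight of 1 and 393 of 393 at 0.95. This checks the arithmetic only, and not whether the deposited values follow that formula. Folding used ViennaRNA 2.7.2 and self-alignment blastn 2.17.0, with Python 3.11.15, numpy 2.4.6 and scipy 1.17.1. The share of masked repeats was not analysed here. Genes named are LNPEP, genes next to or overlapping it, the 3 other genes with the most intervals apart from MARF1, the 3 with at least 5 intervals nearest in 3'UTR length, and both gene lists. MARF1, NORAD, ZKSCAN1 and TAOK1 were named after their values were seen. The members and lists were chosen with earlier results of these data known. Alternatives were stricter q-values and fold enrichment, a reciprocal overlap of 50%, other annotations and each replicate alone.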

Additional observations from a re-analysis of the deposited data

How the results depend on the processing

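Of 53 alternative values, 40 stayed within the SD of the 2 replicates, the 95% interval of a share or, for a count or rank, 1.5 times the value. Stricter q-values (0.01 and 0.001) and a fold enrichment of at least 4 moved none of them, since every LNPEP peak passed these limits. These alternatives could not differ from the main values, so the count of 40 is not a measure of stability. Where an SD was the limit, it came from the values of each replicate alone. Those values are also among the alternatives that it judged. With a reciprocal overlap of 50% between peaks, the shared intervals fell to 5, the covered part of the 3'UTR to 11.1%, the share of replicate 1 peaks with a partner to 33.3% and that of replicate 2 peaks to 41.7%. Fewer intervals follow from the rule itself, as peaks that overlap over less of either length no longer pair. By the Homer annotation 0% of the intervals lay in a 3'UTR, and by the gene names of the deposited list LNPEP ranked 1 in place of 2, while it ranked 3 with the reciprocal overlap and 3 without replicate 1. With the peaks of each replicate alone, the covered part was 35.6 to 49.5% against 29.4%, and the median fold enrichment 7.76 to 9.29 against 8.06. The median A and U share of the intervals, 59.7%, moved to 63.2% with the reciprocal overlap and to 60.8 to 62.0% with single replicates. Their median distance from the stop codon, 5537 nt, moved to 5141 nt with the reciprocal overlap and to 5374 nt without replicate 1.

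Each summit rests on few reads, library totals are unknown, and the peaks give no reads outside them, so binding below the caller's threshold was not detectable. With 2 replicates the spread of any value is itself poorly known. The level of LNPEP mRNA, and how much of it ends at the short form, were not measured here, and their part in the number of peaks was not tested. No paired analysis was possible because the deposited lists set every library against its numbered control and hold no value per library.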

Other observations

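The non-coding RNA NORAD, which had 9 shared intervals, is well known as an RNA with many Pumilio elements and repeated units, and it was set beside LNPEP after the values of LNPEP had been seen. NORAD held 15 TGTANATA matches on the sense strand of its 5401 nt (2.78 per kb), beside 17 in the 8980 nt of the LNPEP 3'UTR (1.89 per kb). In NORAD, 6 of the matches lay in 3 of its shared intervals (3.09 per kb of interval), beside 9 matches in 6 intervals of LNPEP (3.40 per kb). Aligned to itself in the same way, NORAD had 2971 nt that matched another place in the RNA, beside 2093 nt in LNPEP. It held 0 of the inverted repeats found in LNPEP. Among the 105 genes with a shared interval in the 3'UTR, TAOK1 followed LNPEP in TGTANATA matches, with 7 matches and 2 shared intervals. These are counts of letters in RNAs picked for their peaks, and no difference or relation between matches and peaks was tested.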
